A study of Homo sapiens with 12 samples.

Results

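Transcript levels of 9 transcription factors that set and hold B cell fate (PAX5, EBF1, SPI1, SPIB, POU2F2, POU2AF1, IKZF3, BCL6 and BACH2) and of SOX11 were followed across 12 arrays of mantle cell lymphoma cells. The members were taken by gene symbol. They comprised 29 probe sets of 10 genes, out of 41097 probe sets of 19775 genes with a single symbol. Of these 29, 25 had a mean signal of at least 12.55, the level required for testing, and all 10 genes kept at least 1 probe set. The probe sets that stayed under it were 1 of 2 for PAX5, 2 of 3 for BCL6 and 1 of 7 for POU2F2. The cells were Z-138, which the labels give with a TRAF2 nonsense mutation, and Maver-1, which they give with a TRAF3 deletion. Both are established human lines, and each was studied as a line carrying a puromycin-selected, doxycycline-inducible hairpin. For each line 1 construct was a control hairpin labelled NTC, and NIKsh#1 and NIKsh#2 were aimed at MAP3K14, the gene of the kinase NIK. Each line with its construct, called a culture here, was kept without or with 100 ng/ml doxycycline for 7 days, which gave 6 pairs of arrays. The labels do not say whether a pair was plated together. The untreated arrays therefore carry the same constructs as the treated ones, and parental cells without a construct were not analysed here. A p-value measures only the spread between these cultures, and 3 cultures of a line are not 3 independent tumours.

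EBF1 and PAX5 specify and then maintain the B lineage, and the ETS factors SPI1 (PU.1) and SPIB act with them at many of the same enhancers. POU2F2 (OCT2) binds the octamer element, POU2AF1 (OCA-B, OBF1) is its B cell coactivator, and IKZF3 (Aiolos) is an Ikaros family regulator of mature B cells. BCL6 and BACH2 are repressors that hold back plasma cell differentiation and are characteristic of germinal centre and mature B cells. SOX11 is not a normal B cell factor but is switched on in most conventional mantle cell lymphomas, where it is used in diagnosis. NIK starts the alternative NF-kB pathway, which ends in nuclear RELB and NFKB2 dimers that bind kappaB sites.

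RefSeq promoter windows of GRCh38.p14, 250 bases ending just before the annotated start, were at hand for 6 of the 10 genes (BACH2, BCL6, EBF1, PAX5, POU2F2 and SPIB; 7 windows, because BCL6 has 2). Windows of 4 genes are shown, PAX5 and EBF1 because their signals moved together most closely among the members, and POU2F2 and SPIB because they hold the remaining motif matches. They lie at chr9:37034269-37034518 (PAX5, minus strand), chr5:159097957-159098206 (EBF1, minus strand), chr19:42132447-42132696 (POU2F2, minus strand) and chr19:50418688-50418937 (SPIB, plus strand), each printed in the direction of its gene. Capitals mark matches on either strand to the kappaB consensus, to the octamer ATGCAAAT, to the SOX core ACAAAG or to the PU.1 core GAGGAA.
PAX5: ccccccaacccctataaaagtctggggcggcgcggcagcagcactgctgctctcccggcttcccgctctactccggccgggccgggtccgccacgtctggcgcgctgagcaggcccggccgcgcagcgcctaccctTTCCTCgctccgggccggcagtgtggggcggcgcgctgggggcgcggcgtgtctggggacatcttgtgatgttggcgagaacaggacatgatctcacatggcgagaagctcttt
EBF1: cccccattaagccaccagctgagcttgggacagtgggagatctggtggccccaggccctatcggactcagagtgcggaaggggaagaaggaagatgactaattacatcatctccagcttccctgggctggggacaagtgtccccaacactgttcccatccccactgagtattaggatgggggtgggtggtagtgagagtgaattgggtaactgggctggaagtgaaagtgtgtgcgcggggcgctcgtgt
POU2F2: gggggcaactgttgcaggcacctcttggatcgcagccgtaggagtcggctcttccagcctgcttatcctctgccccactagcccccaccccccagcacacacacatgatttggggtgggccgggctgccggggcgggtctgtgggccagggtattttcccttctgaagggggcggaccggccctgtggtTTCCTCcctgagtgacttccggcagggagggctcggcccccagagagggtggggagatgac
SPIB: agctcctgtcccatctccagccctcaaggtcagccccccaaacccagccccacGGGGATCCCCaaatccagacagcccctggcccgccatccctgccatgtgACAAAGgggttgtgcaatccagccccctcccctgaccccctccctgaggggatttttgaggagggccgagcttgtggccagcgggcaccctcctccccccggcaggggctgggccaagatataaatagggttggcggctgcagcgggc
The PAX5 window holds a PU.1 core on the opposite strand, 109 to 114 bases before the start, and the POU2F2 window holds another, 56 to 61 bases before the start. The SPIB window reads as a palindromic kappaB match 188 to 197 bases before the start, with a SOX core at 143 to 148 bases. Matches do not overlap, apart from the kappaB match, which is found on both strands. Of all 35116 windows of this length, 23.6% hold the PU.1 core, 13.7% the SOX core, 5.21% the kappaB consensus and 1.63% the octamer. The octamer was found in 0 of the 7 windows, and the windows of EBF1, BACH2 and BCL6 hold none of the 4 motifs. These are matches of letters in one short window and say nothing about binding.

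MAP3K14, the targeted gene, read 55.2 untreated and 33.3 treated in Z-138 NIKsh#1, 52.0 and 49.2 in Z-138 NIKsh#2, 86.9 and 63.4 in Maver-1 NIKsh#1, and 79.3 and 55.7 in Maver-1 NIKsh#2. Its NTC pairs were 46.4 and 55.4 for Z-138, 77.2 and 132.7 for Maver-1. The signal was thus lower with doxycycline in all 4 NIKsh cultures, with changes of -0.68 to -0.08 on the log2 scale, and higher in both NTC cultures, by 0.24 in Z-138 and 0.76 in Maver-1. All changes are of log2(signal + 3), which understates the change of dim probe sets. The B cell markers MS4A1 and CD79A were well expressed in both lines, at 2767 to 4006 and 593 to 978. CCND1, the defining gene of the tumour, reached 497 to 1264 in Z-138 and 2599.8 to 3031 in Maver-1, whereas CD5 stayed between 0.5 and 1.6 in Z-138 and reached 33.7 to 70.8 in Maver-1. Of 22 markers of T and NK cells, monocytes and granulocytes, red cells, fibroblasts, epithelium and endothelium, 20 had a probe set and 8 a mean signal above the filter. These were CD3G, NKG7, LYZ, COL1A1, PDGFRB, EPCAM, KRT18 and PECAM1. In Maver-1 PECAM1 read 549.7 to 929, EPCAM 173 to 314 and KRT18 54.9 to 88.2. In Z-138 COL1A1 read 76.1 to 244, CD3G 56.6 to 177.5 and PECAM1 44.8 to 397. NKG7, LYZ and PDGFRB read at most 25.3 on every array. CD3D, CD3E, CD2 and CD14 read at most 8.3 on every array. The 3'/5' signal ratio of ACTB, a measure of RNA integrity, differed between the lines before treatment, with 2.33 to 2.92 for Z-138 against 3.66 to 6.88 for Maver-1. With doxycycline it was higher in all 3 Z-138 cultures (from 2.33 to 6.34 in NTC, 2.86 to 4.62 in NIKsh#1 and 2.92 to 5.09 in NIKsh#2), while in Maver-1 it was lower in NTC and NIKsh#1 and stood at 3.66 and 3.80 in NIKsh#2. Some fits below take this ratio as a covariate. Because the ratio differed with line before treatment and with doxycycline in Z-138, those fits cannot tell RNA integrity apart from either. What RNA integrity contributed was not tested. On bulk RNA, fewer cells with a transcript and less transcript per cell cannot be told apart.

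The clearest differences among the 10 genes lay between the lines. Without doxycycline, SOX11, PAX5 and EBF1 were higher in Z-138 and BCL6, BACH2 and POU2AF1 higher in Maver-1 (limma, adjusted p under 0.05 over 11548 genes). These 6 of 10 stand against a background in which 60.2% of all genes tested differed between the lines, 25.5% higher in Z-138 and 34.8% higher in Maver-1, so that the share of members is not above that of genes at large. With doxycycline 4 of 10 differed, against 36.3% of all genes (17.3% higher in Z-138, 19.1% higher in Maver-1). The treated arrays come from the same cultures and are no independent repeat.

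**Figure D1:**
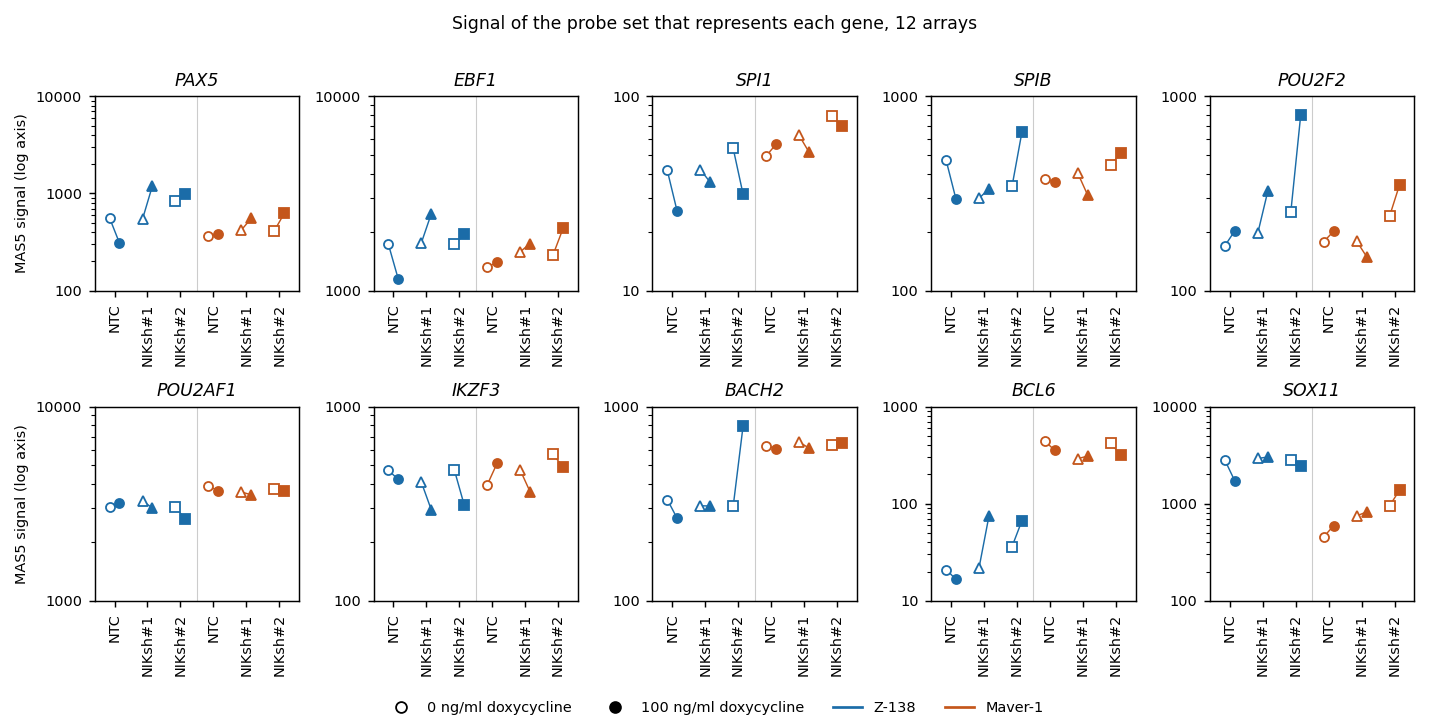
MAS5 signal on a log axis for the probe set that represents each of the 10 genes, for the NTC, NIKsh#1 and NIKsh#2 cultures of Z-138 (blue) and Maver-1 (orange), with open symbols at 0 and filled symbols at 100 ng/ml doxycycline and a line joining each culture. BCL6, POU2AF1 and SOX11 are the 3 genes whose 6 arrays of either line lie wholly apart.

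EBF1 and PAX5, the lineage-specifying pair, were modestly higher in untreated Z-138. PAX5 (221969_at) read 559, 546 and 835 in the NTC, NIKsh#1 and NIKsh#2 cultures of Z-138 and 365, 421 and 414 in those of Maver-1, so the lines did not overlap. The difference was 0.66 ± 0.15 on the log2 scale (limma estimate ± SE, n = 3 cultures a line), or 1.58-fold, with an adjusted p of 0.00158. EBF1 (227646_at) read 1729, 1764 and 1733 in Z-138 against 1318, 1586 and 1534 in Maver-1, a difference of 0.24 ± 0.08 with an adjusted p of 0.0172. Of the 3 further EBF1 probe sets, 232204_at (0.92 ± 0.16) and 233261_at (0.96 ± 0.35) also passed when every probe set was tested, and 229487_at did not (0.18 ± 0.10). With doxycycline both genes overlapped between the lines, at 0.48 ± 0.44 for PAX5 and 0.04 ± 0.26 for EBF1. The EBF1 call was lost without the Maver-1 NTC culture (0.16, adjusted p = 0.0791) and without the variance trend (adjusted p = 0.0759). With the ACTB ratio as a covariate neither untreated difference passed, at 0.62 for PAX5 (adjusted p = 0.0964) and 0.05 for EBF1 (adjusted p = 0.797). In the treated arrays the same covariate brought both past the threshold, at 1.87 for PAX5 and 0.86 for EBF1, and leaving out the Z-138 NTC culture brought PAX5 past it at 1.08 (adjusted p = 0.00202).

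The ETS factors differed less clearly. SPI1 (205312_at) was dim, at 41.6, 42.0 and 54.0 in untreated Z-138 and 49.3, 63.0 and 79.5 in untreated Maver-1, which overlap. Its difference was -0.44 ± 0.20 (adjusted p = 0.0787) before treatment and -0.88 ± 0.25 (adjusted p = 0.0219) with doxycycline, when Z-138 read 25.6, 36.2 and 31.4 and Maver-1 56.7, 51.7 and 70.8. The untreated difference passed without the Maver-1 NTC culture (-0.60, adjusted p = 0.0282) and with array weights (-0.49, adjusted p = 0.0339). The treated call was lost without the Maver-1 NTC culture (adjusted p = 0.0686), without Maver-1 NIKsh#2 (adjusted p = 0.0816) and with the ACTB ratio as a covariate (-0.50, adjusted p = 0.297). The 2 SPIB probe sets gave different answers. At 232739_at, the brighter on average and so the one that represents the gene, the lines overlapped (-0.15 ± 0.15), though the difference passed without the Z-138 NTC culture (-0.34, adjusted p = 0.0229) and with the mean of both probe sets (-0.47, adjusted p = 0.00362). At 205861_at untreated Z-138 read 263.5, 264 and 323 and Maver-1 read 479, 448 and 549.9, a difference of -0.79 ± 0.12 (adjusted p = 0.000193) that stayed at -0.79 ± 0.20 (adjusted p = 0.0168) with doxycycline.

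Of the octamer factors, the coactivator POU2AF1 was higher in Maver-1 on every array. At 205267_at the 6 Z-138 arrays ran from 2630.5 to 3259 and the 6 Maver-1 arrays from 3509.5 to 3881. The untreated difference was small but tight, -0.28 ± 0.06 or 1.21-fold (adjusted p = 0.000791), and it was -0.30 ± 0.08 (adjusted p = 0.0199) with doxycycline. The untreated call was lost with the ACTB ratio as a covariate (-0.21, adjusted p = 0.128), and the treated call was lost when any 1 of the 3 Maver-1 cultures was left out (adjusted p = 0.0501 to 0.0864) and without the variance trend (adjusted p = 0.125). The dimmer 1569675_at pointed the same way at -1.35 ± 0.22. POU2F2 did not separate the lines at 227749_at (0.05 ± 0.17, 95% interval -0.31 to 0.41), and of its 5 other tested probe sets 235661_at alone passed, at 0.48 ± 0.18. With doxycycline the POU2F2 difference passed with array weights (1.22, adjusted p = 0.0309), with the ACTB ratio as a covariate (1.71, adjusted p = 0.0433) and without the Z-138 NTC culture (1.20, adjusted p = 0.0381). IKZF3 read 469, 408 and 472 in untreated Z-138 and 396, 471 and 568 in untreated Maver-1 at 227030_at, which overlap (-0.08 ± 0.13). The difference passed with the ACTB ratio as a covariate (-0.52, adjusted p = 0.0362), and that of the treated arrays without the Z-138 NTC culture (-0.57, adjusted p = 0.0368). Its dimmer probe set 221092_at was higher in Maver-1, by -1.03 ± 0.23 (adjusted p = 0.00266), and 236301_at was not (0.24 ± 0.23).

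Of the repressors, BCL6 showed the widest gap of any member. BCL6 (203140_at) read 21.0, 21.9 and 36.1 in untreated Z-138 and 439.9, 291 and 417 in untreated Maver-1. This is a 13.3-fold difference on the log2(signal + 3) scale, -3.73 ± 0.21 with an adjusted p of 7.73e-09, and the treated arrays still differed by -2.80 ± 0.46 (adjusted p = 0.00147). The mean of its 3 probe sets gave -1.87 ± 0.18 and -1.49 ± 0.24, and the ACTB ratio as a covariate gave -3.45 ± 0.39 and -1.57 ± 0.43, all past the threshold. Of the 2 BCL6 probe sets below the filter, 215990_s_at ranged over 0.2 to 5.2 on the Z-138 arrays and 14.8 to 23.9 on the Maver-1 arrays, and 228758_at read at most 8.3 in both. BACH2 (221234_s_at) was tightly grouped without doxycycline, at 332, 308.5 and 306 in Z-138 and 629.8, 657.5 and 632.5 in Maver-1, a difference of -1.01 ± 0.10 or 2.02-fold (adjusted p = 1e-06). With the mean of both probe sets it was -0.64 ± 0.14 (adjusted p = 0.00291). The treated lines overlapped, with Z-138 NIKsh#2 at 792, and the difference was then -0.63 ± 0.35, or -1.12 (adjusted p = 0.00199) without that culture. BACH2's other probe set, 227173_s_at, overlapped between the untreated lines (-0.27 ± 0.23).

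SOX11 was the member most raised in Z-138. At 204914_s_at it read 2801, 2920.3 and 2822 in untreated Z-138 and 456, 748.5 and 953 in untreated Maver-1. The difference was 2.05 ± 0.19, or 4.13-fold, with an adjusted p of 7.44e-07, and it was 1.41 ± 0.29 (adjusted p = 0.0053) with doxycycline. With the ACTB ratio as a covariate these were 1.18 ± 0.18 and 2.25 ± 0.24, both still past the threshold. All 3 SOX11 probe sets gave the same direction, at 2.69 ± 0.30, 2.05 ± 0.19 and 2.11 ± 0.17 untreated and 1.82 ± 0.35, 1.41 ± 0.30 and 1.98 ± 0.26 treated. Maver-1 varied more between its cultures than Z-138 did, with an SD of 250.1 around a mean of 719 against 63.8 around 2848 (n = 3 each). Over every probe set, 14 of 25 differed untreated (background 54.9%) and 8 of 25 with doxycycline (background 30.4%). Among the 10 genes, BCL6, POU2AF1 and SOX11 had the 6 arrays of either line fully apart, which 36.9% of all genes also had.

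**Figure D2:**
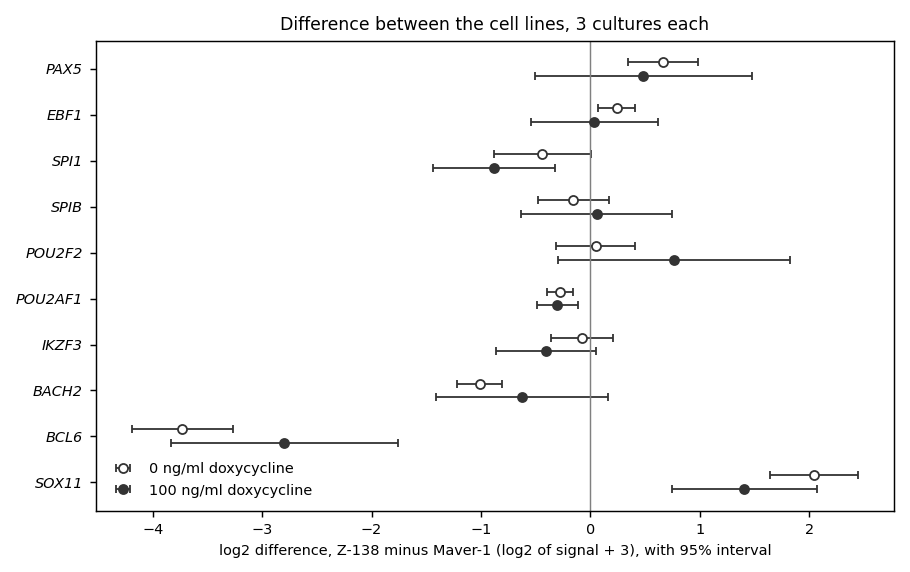
Difference between Z-138 and Maver-1 on the log2(signal + 3) scale for each gene, as limma estimates with 95% intervals from 3 cultures a line, at 0 ng/ml (open) and 100 ng/ml doxycycline (filled). BCL6 lies farthest to the left at -3.73 and SOX11 farthest to the right at 2.05, and the intervals are wider with doxycycline.

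The knockdown comparison asked whether these factors change when a hairpin aimed at MAP3K14 is induced. None of the 10 genes passed in the 4 NIKsh cultures together (0 of 10 with limma), where 0.0433% of all genes passed. At an unadjusted p under 0.05 there were 4 members, against 1037 of 11548 genes. The members' median change was 0.27 against 0.01 over all genes, and 7 of 10 were positive against 51.7% of all genes. Adjusted p-values ran from 0.333 for PAX5 to 0.888 for SOX11. In the NTC cultures 0 members and 387 of 11548 genes had an unadjusted p under 0.05 (limma). There 0 of 10 passed (0% of all genes passed) and the median was -0.21. For the NIKsh change minus the NTC change, 3 members and 627 of 11548 genes had an unadjusted p under 0.05 (limma). Of the members 0 of 10 passed (0% of all genes) and the median was 0.48 against -0.03 over all genes. Both comparisons use the same NTC and NIKsh arrays, so these medians are not separate evidence. Of the 25 probe sets 0 passed in the NIKsh cultures (limma, background 0.00876%). At an unadjusted p under 0.05 there were 7, against 1777 of 22829 probe sets.

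**Figure D3:**
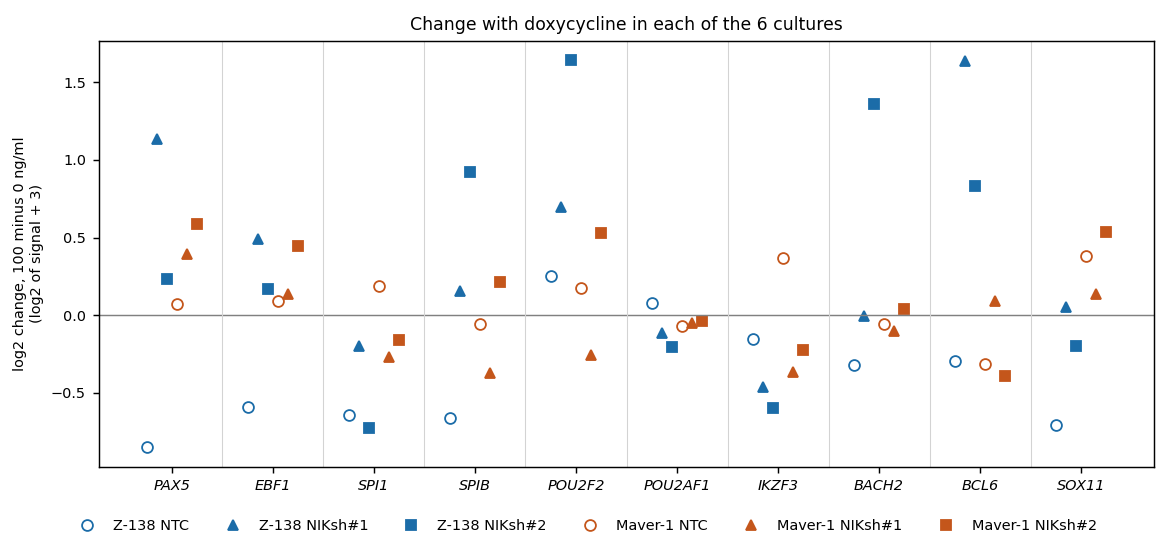
Change in log2(signal + 3) from 0 to 100 ng/ml doxycycline for each gene, with 1 point per culture (circles NTC, triangles NIKsh#1, squares NIKsh#2; blue Z-138, orange Maver-1). The 4 NIKsh points of PAX5 and EBF1 all lie above 0 and above both NTC points, and those of IKZF3 lie below 0 and below both NTC points.

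PAX5 and EBF1 were the members whose NIKsh points stood apart from the control points on the upper side. Without and with doxycycline, PAX5 read 546 and 1201 in the NIKsh#1 culture of Z-138, 835 and 982 in its NIKsh#2 culture, 421 and 555 in Maver-1 NIKsh#1, and 414 and 623 in Maver-1 NIKsh#2. The NTC culture of Z-138 read 559 and 309, and that of Maver-1 read 365 and 385. Each NIKsh culture was thus higher with doxycycline, by 0.23 to 1.13, while the NTC changes stood at -0.85 and 0.07. The mean NIKsh change was 0.59 ± 0.18 (95% interval 0.19 to 0.98, n = 4 cultures, adjusted p = 0.333) and its difference from NTC was 0.97 ± 0.31 (adjusted p = 0.876).

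EBF1 read 1764 without and 2485 with doxycycline in Z-138 NIKsh#1, 1733 and 1947 in Z-138 NIKsh#2, 1586 and 1745 in Maver-1 NIKsh#1, and 1534 and 2092 in Maver-1 NIKsh#2. Its untreated and treated NTC signals were 1729 and 1144 (Z-138) and 1318 and 1405 (Maver-1). Its 4 NIKsh changes, 0.14 to 0.49, again lay above both NTC changes (-0.59 and 0.09). The mean was 0.31 ± 0.11 (95% interval 0.06 to 0.56, adjusted p = 0.431) and the difference from NTC 0.56 ± 0.19 (adjusted p = 0.878). Among all genes, 9.95% were positive in all 4 NIKsh cultures and 7.12% lay above both NTC cultures, and 2 of the 10 members did each. The lowest value of either gene was that of the treated Z-138 NTC array, which also had the highest ACTB ratio of that line. Without that culture the difference from NTC was 0.51 ± 0.32 for PAX5 and 0.22 ± 0.18 for EBF1. Without Maver-1 NTC it was 1.44 ± 0.32 for PAX5 (adjusted p = 0.12) and 0.91 ± 0.18 for EBF1. With the ACTB ratio as a covariate it was 0.96 ± 0.27 and 0.55 ± 0.15. Of the 4 EBF1 probe sets, all were positive in Z-138 NIKsh#1 and in both Maver-1 NIKsh cultures and 2 in Z-138 NIKsh#2, and 2 lay above both NTC cultures. With the mean of its 2 probe sets, PAX5 differed from NTC by 0.12. Its other probe set, 206802_at, read only 4.5 to 14, and its changes averaged -0.06 in the NIKsh and 0.68 in the NTC cultures.

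Across the 12 arrays, after the mean of each line was subtracted, PAX5 and EBF1 had a Pearson r of 0.92, the highest among the 45 member pairs. BACH2 had an r of 0.81 with SPIB and with POU2F2 and of -0.83 with POU2AF1. The arrays are 6 pairs that share cultures, RNA integrity and scaling, so these values describe the arrays only. By the same measure the 2 genes closest to PAX5 among all tested were PIGR (0.97) and LCORL (0.95), those closest to EBF1 were ORAI3 and TLR4 (0.96 each), and those closest to SOX11 were RBM6 (0.95) and ANXA2R (0.92). The closest to IKZF3 were CD80 and MCM9 (0.93 each), to POU2F2 ZBED5 (0.96) and DMXL1 (0.94), and to BCL6 SERPINI1 (0.96) and SH3KBP1 (0.95). BACH2 lay closest to ANKRD33B (0.94) and VNN2 (0.93), SPIB to LINC00494 and DRAM2 (0.92 each), SPI1 to GUCD1 (0.93) and BCORL1 (0.89), and POU2AF1 to NDC1 (0.93) and TENT5C (0.92).

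**Figure D4:**
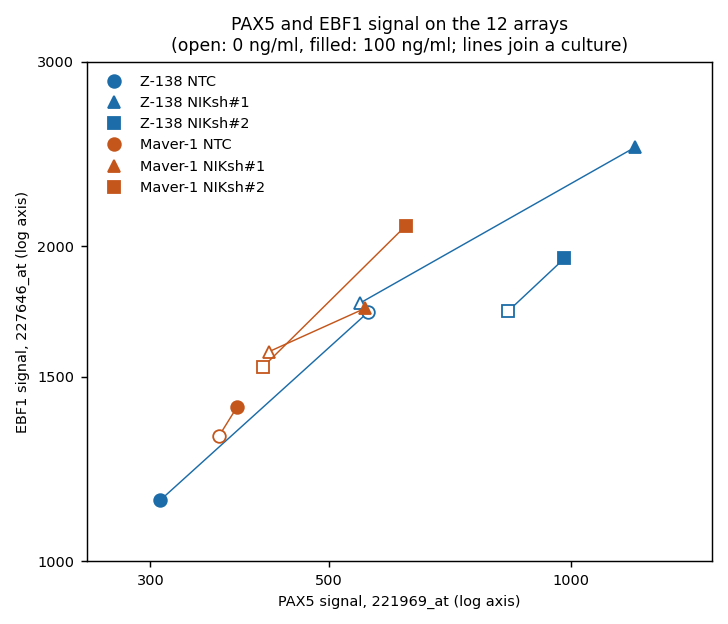
Signal of EBF1 (227646_at) against PAX5 (221969_at) on the 12 arrays, both on log axes, with blue for Z-138, orange for Maver-1, circles for NTC, triangles for NIKsh#1 and squares for NIKsh#2. Lines join the untreated (open) and treated (filled) array of a culture; 5 run up and to the right with doxycycline, and the Z-138 NTC culture runs down and to the left, from 559 to 309 for PAX5.

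IKZF3 moved the other way. At 227030_at the Z-138 NIKsh#1 culture read 408 without and 294 with doxycycline and NIKsh#2 read 472 and 311, while the Maver-1 cultures read 471 and 364 (NIKsh#1) and 568 and 487 (NIKsh#2). The NTC pairs were 469 and 422 for Z-138, 396 and 511.5 for Maver-1. Every NIKsh change was negative, at -0.60 to -0.22, and below both NTC changes, -0.15 and 0.37. The mean was -0.41 ± 0.13 (95% interval -0.70 to -0.13) but did not pass (adjusted p = 0.345), nor did the difference from NTC (-0.52 ± 0.22, adjusted p = 0.884). Of the gene's other probe sets, 221092_at was negative in 3 of the 4 NIKsh cultures (mean -0.39 ± 0.22) and 236301_at in 2 (-0.15 ± 0.30). Their differences from NTC were positive, at 0.08 ± 0.38 and 0.64 ± 0.53, and the mean of the 3 probe sets gave a difference from NTC of 0.07 ± 0.30. Without Maver-1 NTC the difference at 227030_at was -0.26 ± 0.25. SPI1 (-0.73 to -0.16) and POU2AF1 (-0.20 to -0.04) were also lower in all 4 NIKsh cultures, but the NTC changes overlapped theirs. Of all genes, 8.29% were negative in all 4 and 6.45% lay below both NTC cultures.

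POU2F2 and BCL6 carried the largest changes in Z-138. Untreated and treated, POU2F2 (227749_at) read 199 and 324.5 in Z-138 NIKsh#1, 255 and 802 in Z-138 NIKsh#2, 179 and 149.6 in Maver-1 NIKsh#1, and 243 and 351 in Maver-1 NIKsh#2. Its NTC pairs were 170.4 and 203 (Z-138) and 179 and 202 (Maver-1). The Z-138 NIKsh change was 1.17 ± 0.27, or 2.25-fold (adjusted p = 0.0653), and the Maver-1 change 0.13 ± 0.27. In Z-138, BCL6 (203140_at) read 21.9 and 74.4 in the NIKsh#1 pair, 36.1 and 66.6 in the NIKsh#2 pair and 21.0 and 16.6 in the NTC pair, so the treated knockdown arrays were the highest of that line. The Maver-1 pairs read 439.9 and 353 (NTC), 291 and 309.5 (NIKsh#1), and 417 and 317 (NIKsh#2). Even the highest Z-138 array stayed under the lowest of Maver-1.

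The BCL6 change in Z-138 was 1.23 ± 0.26, or 2.35-fold, and its adjusted p of 0.0503 missed the threshold narrowly. It passed without the Z-138 NTC culture (1.23, adjusted p = 0.0421), without Z-138 NIKsh#2 (1.64, adjusted p = 0.00181), without either Maver-1 NIKsh culture (adjusted p = 0.00755 and 0.00888), without the culture block (adjusted p = 0.0443) and with culture as a random block (adjusted p = 0.0309). With the mean of its 3 probe sets it was smaller, at 0.65 ± 0.22 (adjusted p = 0.238), and it did not pass with the ACTB ratio as a covariate (4.29 ± 2.27). The POU2F2 change passed without Z-138 NIKsh#1 (1.64, adjusted p = 0.000762) and without either Maver-1 NIKsh culture (adjusted p = 0.000735 and 0.00158). With the mean of probe sets the POU2F2 change was smaller, at 0.90 ± 0.29 (limma, adjusted p = 0.212). With the ACTB ratio as a covariate it was -3.10 ± 1.88 and did not pass. Where a left-out culture leaves 1 Z-138 NIKsh culture, that culture is assumed to vary like the rest. Leaving out a Maver-1 culture or the Z-138 NTC culture left the Z-138 NIKsh estimates as they were, here and below. It altered only the estimate of spread, so passing then adds nothing on the change itself. With all cultures 0 of 10 members passed in Z-138 (limma), where 2.14% of all genes did, and 0 of 10 in Maver-1 (0% of all genes). At an unadjusted p under 0.05 there were 8 members in Z-138, against 1868 of 11548 genes. In Maver-1 there were 3, against 458 of 11548 genes. The change in Z-138 exceeded that in Maver-1 by 1.39 ± 0.37 for BCL6 (adjusted p = 0.313) and 1.04 ± 0.38 for POU2F2 (adjusted p = 0.507). Of the 10 members 0 passed this test of the difference (limma, 0.121% of all genes). At an unadjusted p under 0.05 there were 3, against 992 of 11548 genes. Without Z-138 NIKsh#2 the BCL6 difference was 1.79 (adjusted p = 0.0151), and without Z-138 NIKsh#1 the POU2F2 difference was 1.51 (adjusted p = 0.0154) and that of BACH2 1.39 (adjusted p = 0.00267). In Z-138 PAX5 changed by 0.68 ± 0.21 (adjusted p = 0.142), and by 1.13 (adjusted p = 0.00184) without NIKsh#2, the culture in which its change was smallest. It also passed without either Maver-1 NIKsh culture, at 0.68 (adjusted p = 0.0193 and 0.0234), whereas the mean of its probe sets gave 0.16 ± 0.20 (adjusted p = 0.772).

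At the probe sets that represent the genes, the hairpins differed most in POU2F2, BACH2 and SPIB. All 6 tested POU2F2 probe sets were positive in both Z-138 NIKsh cultures, 5 of 6 in Maver-1 NIKsh#2 and 0 of 6 in Maver-1 NIKsh#1. At 235661_at, for example, Maver-1 NIKsh#2 read 59.5 untreated and 169.6 treated, against 58.0 and 41.3 for Maver-1 NIKsh#1. BACH2 (221234_s_at) read 306 untreated and 792 treated in Z-138 NIKsh#2 but 308.5 and 307.6 in Z-138 NIKsh#1. SPIB (232739_at) read 344 and 653 in Z-138 NIKsh#2 and 442 and 513 in Maver-1 NIKsh#2, against 299 and 334 (Z-138) and 401 and 309 (Maver-1) for NIKsh#1. The other SPIB probe set, 205861_at, went the opposite way. Its log2 changes were 0.19 (Z-138) and 0.05 (Maver-1) for NIKsh#1, and -0.03 and -0.25 for NIKsh#2. NIKsh#2 minus NIKsh#1 was 0.86 ± 0.44 for POU2F2 (95% interval -0.14 to 1.86), 0.76 ± 0.39 for BACH2 and 0.67 ± 0.35 for SPIB. The Z-138 NIKsh#2 culture, which carried the widest changes of all 3 genes, was the one whose MAP3K14 signal differed least with doxycycline (-0.08); a link between these was not tested. None passed: 0 of 10 genes (limma, 0% of all genes), with an adjusted p of 0.9996 for each. At an unadjusted p under 0.05 there were 0 members, against 202 of 11548 genes. BACH2 in Z-138 passed without NIKsh#1 (1.36, adjusted p = 0.000224) and without Maver-1 NIKsh#1 (0.68, adjusted p = 0.048), and SPIB passed without Z-138 NIKsh#1 (0.92, adjusted p = 0.0172).

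**Figure D5:**
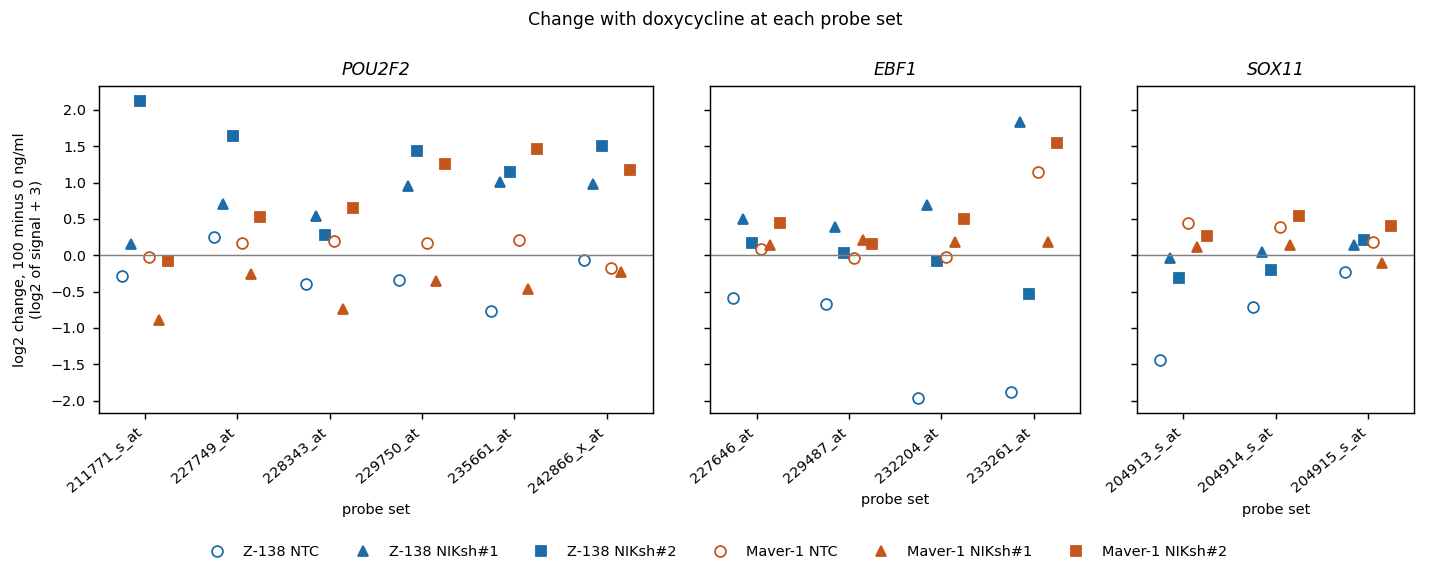
Change in log2(signal + 3) from 0 to 100 ng/ml doxycycline at every tested probe set of POU2F2, EBF1 and SOX11, 1 point per culture (open circles NTC, triangles NIKsh#1, squares NIKsh#2; blue Z-138, orange Maver-1). For POU2F2 the Maver-1 NIKsh#1 point is below 0 at all 6 probe sets, and the Z-138 NTC point is below 0 at all 4 EBF1 and all 3 SOX11 probe sets.

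SOX11 showed no common direction. At 204914_s_at the Z-138 pairs read 2920.3 and 3024 (NIKsh#1), 2822 and 2461 (NIKsh#2) and 2801 and 1712 (NTC). The Maver-1 pairs read 748.5 and 823 (NIKsh#1), 953 and 1382 (NIKsh#2) and 456 and 595 (NTC). The mean NIKsh change was 0.13 ± 0.16 (95% interval -0.23 to 0.49), and the Maver-1 change of 0.34 ± 0.12 did not pass (adjusted p = 0.998). Before induction the NIKsh cultures already read higher than NTC by 0.46 ± 0.16 (adjusted p = 0.989), mainly in Maver-1. Of all 11548 genes, 552 had an unadjusted p under 0.05 between the untreated constructs (limma). In this comparison of untreated constructs 0 of 10 members passed (limma; 1 at an unadjusted p under 0.05; 0% of all genes), and 1 passed when the Z-138 NTC culture was left out, as did 11 of all 11548 genes.

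Genes around the members in the same programme were read from lists. Over both lines, 1037 of all 11548 genes had an unadjusted p under 0.05 in the NIKsh cultures (limma). The unadjusted counts of list genes below stand beside that number. Of 12 B lineage genes that PAX5 and EBF1 activate, 10 were tested, and their NIKsh changes were all positive with a median of 0.16, although 0 passed (3 at an unadjusted p under 0.05). CD72, a B cell coreceptor, changed by 0.62 ± 0.17 (adjusted p = 0.264), FCRLA by 0.23 ± 0.07 (adjusted p = 0.347) and CD24 by 0.18 ± 0.07. In the NTC cultures 7 of the 10 were negative (median -0.13). Positive changes made up 51.7% of all genes in the NIKsh cultures and 56.0% in the NTC cultures. In Maver-1 alone 4 of the 10 NIKsh changes were positive, near the 47.8% of all genes. Of 9 tested plasma cell genes that B cell factors hold down, 7 were negative with a median of -0.18 and 0 passed over both lines (2 at an unadjusted p under 0.05). In Z-138, where 2.14% of all genes passed, all 9 were negative and 2 fell, ELL2 (an elongation factor of antibody-secreting cells) by 2.67 on the log2 scale ± 0.20 (adjusted p = 0.000606) and MZB1 (an endoplasmic reticulum chaperone) by 1.21 ± 0.14 (adjusted p = 0.00315). The Z-138 NTC culture changed by 0.99 for ELL2 and by -0.79 for MZB1, so MZB1 was also lower with the control hairpin. Calls in Z-138, here and below, are of the NIKsh change alone, not of its difference from NTC. The ELL2 change in Z-138 differed from that in Maver-1 by -2.20 ± 0.28 (adjusted p = 0.0322). With the mean of its probe sets ELL2 did not differ between the lines' changes (-1.39, adjusted p = 0.316), nor without the variance trend (adjusted p = 0.345). PRDM1, the master regulator of plasma cells, had a change of -0.54 ± 0.18 for Z-138 and 0.10 ± 0.18 for Maver-1, neither passing.

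Of 24 tested further lymphoid transcription factors, 0 passed over both lines (6 at an unadjusted p under 0.05; median 0.03), and in Z-138, where 2.14% of all genes passed, FOXO1 (0.80 ± 0.12) and NR4A1 (1.39 ± 0.25) rose while RUNX3 (-1.12 ± 0.21) and TCF4 (-0.34 ± 0.07) fell. The Z-138 NTC culture changed by -0.52 for FOXO1, 0.88 for RUNX3 and -0.50 for TCF4 (NR4A1 is not given). TCF4 thus fell with the control hairpin too. Among 12 tested relatives and partners of the members, IKZF2 alone rose in the Z-138 NIKsh cultures, by 0.33 ± 0.07 (adjusted p = 0.0441), with -0.11 in NTC. Of the 12 genes reported with SOX11 in conventional mantle cell lymphoma, 0 passed over both lines (4 at an unadjusted p under 0.05), and CDK2AP1 alone rose in the Z-138 NIKsh cultures (0.33 ± 0.07, with 0.18 in NTC). Of these calls in Z-138, ELL2 kept its own under 16 of 17 alternative settings, MZB1 and FOXO1 under 15 of 17 and RUNX3 under 14 of 17, whereas NR4A1 kept it under 11 of 16, IKZF2 under 7 of 17, TCF4 under 5 of 17 and CDK2AP1 under 4 of 17. Of the 5 tested fibroblast, epithelial and endothelial markers 2 also fell in Z-138, COL1A1 by 1.32 ± 0.25 and PECAM1 by 1.77 ± 0.31. COL1A1 kept this call under 10 of 16 settings and PECAM1 under 14 of 17. In Maver-1 NIKsh#1 and NIKsh#2 COL1A1 changed by -1.08 and -0.96, and PECAM1 by -0.04 and -0.12. The NTC changes of COL1A1 were 0.41 (Z-138) and 0.50 (Maver-1), and those of PECAM1 0.76 and 0.35. The part of these markers in the members' values was not tested. The summed signal of all 7 markers of that list ran from 418 to 540.3 in untreated and from 185 to 644 in treated Z-138, and from 986 to 1161 and 881 to 1227 in Maver-1. That of the T and NK cell list ran from 134 to 203 and 77.3 to 186 in Z-138, against 11.5 to 23.6 and 14.1 to 26.3 in Maver-1.

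Between the untreated lines, 8 of the 10 tested PAX5 and EBF1 target genes were lower in Z-138 and 0 higher, although PAX5 and EBF1 themselves were higher there. VPREB3 stood at -1.46 ± 0.10, CD22 at -1.38 ± 0.19 and CD72 at -0.90 ± 0.16. Of 9 plasma cell genes, 5 were higher in Z-138, among them SDC1 (2.50 ± 0.13) and PRDM1 (1.75 ± 0.11), and 2, XBP1 (-0.70 ± 0.08) and ELL2 (-0.62 ± 0.11), were lower. The 12 genes reported with SOX11 did not follow SOX11 as a group, with 5 higher in Z-138, such as DBN1 (2.49 ± 0.14), CNN3 (2.17 ± 0.10) and PDGFA (1.36 ± 0.11), and 5 lower, such as LGALS3BP (-4.67 ± 0.16). Among 24 other lymphoid factors 6 were higher in Z-138, among them EGR1 (5.99 ± 0.14), and 13 were lower, including MEF2C (-2.59 ± 0.22) and TCF4 (-0.61 ± 0.06). Of 12 relatives and partners 6 were higher and 4 lower. Some of the genes in these counts reached the filter only through 1 line, so their calls are not evidence of a difference. For them the signals are given in place of a difference. NFATC1, one of the lymphoid factors higher in Z-138, read 161.5 to 190.0 there and 5.6 to 9.7 in untreated Maver-1. PAX8 read 37.8 to 44.8 against 1.3 to 6.8, and BCL6B 22.4 to 30.7 against 3.6 to 8.4, the BCL6B call being lost with the ACTB ratio as a covariate (adjusted p = 0.0689). The BCL6 corepressor BCOR read 2.9 to 3.7 in untreated Z-138 and 1375 to 1593 in untreated Maver-1, and ZNF521 read 2.1 to 3.1 against 26.9 to 30.5. All of these values stand beside the 60.2% of genes that differed between the untreated lines.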

How the data were processed

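RNA of 12 samples, a treated and an untreated one of each of 6 cultures, was amplified and biotin-labelled, per the labels' protocols, and hybridised to 1-colour Affymetrix arrays. The deposited values are linear signal intensities that the authors made with MAS5, per the submitters' processing notes; the version and genome build are not given in the sources used here. The trimmed mean without the outer 2% on either side was alike on all arrays, as after global scaling, and the array medians ran from 10.6 to 14.1. No read depth exists for arrays, and their number limits the precision.

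The platform annotation pairs 41097 of the 54675 probe sets with a single gene symbol, 1801 with several and 11777 with none (62 of these are controls). The signals were not normalized further. They were taken as log2(signal + 3), the pseudocount being the rounded median of the arrays' 25th percentiles. Each gene was represented by its probe set of highest mean log2 signal, and only genes whose mean signal reached the median of the array medians (12.55) were tested. These were 11548 genes, or 22829 probe sets where every probe set was tested. Differences were tested with limma 3.58.1 in R 4.3.3 (eBayes with an intensity trend, Benjamini-Hochberg over all features tested, threshold 0.05). The NTC and NIKsh changes had culture as a fixed block and 4 residual degrees of freedom, the changes per line 2, the changes per hairpin 3, the line differences 4, and the untreated construct comparison 3 with line as a term. The steps were tested on simulated data, and Python 3.11.15 served for tables (pandas 2.3.3) and plots (matplotlib 3.10.9).

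Treated and untreated arrays of one line and construct were paired because the labels give them the same source. Over all genes, the deviations of the NIKsh#1 and NIKsh#2 pairs from their group means had a correlation of -0.04 for Z-138 and 0.20 for Maver-1. The members and the gene lists were chosen with earlier results of these data known, and the test of each hairpin was added after the members' signals were seen. From each list the text takes genes among the up to 4 with the smallest p in the NIKsh change and the up to 4 with the smallest p in the untreated line difference, and for each member the 2 genes most correlated with it. The list genes named because they passed in Z-138 were chosen after their values were seen, as were PRDM1 and ELL2 where they stand outside that rule. Alternatives were other pseudocounts, filters, probe set rules, normalization, variance models, array weights, the ACTB ratio as a covariate, other treatments of the pairing, and leaving out each culture. Promoter windows come from RefSeq; where none was at hand for a member, none was used here.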

Additional observations from a re-analysis of the deposited data

Results flagged for a closer look

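At BACH2 probe set 221234_s_at, the doxycycline change of the Z-138 NIKsh#2 culture, 1.36 on the log2 scale, lay far from those of the other 3 NIKsh cultures. Its gap to the nearest of them was 0.900 of the whole range of the 4 changes. All 25 tested probe sets of the 10 genes were examined in this way and 1 stood out, where chance alone is set to mark about 1 group in 20. The other BACH2 probe set, 227173_s_at, did not stand out by this measure.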

How the results depend on the processing

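Of the counts of members passing, 0 of 10 in Z-138 NIKsh became 1 with no replicate block and 1 with culture as a random block, the gene being BCL6 each time, and ran from 0 to 4 when single cultures were left out. Leaving out cultures gave 0 to 2 for Z-138 minus Maver-1, 2 to 7 for the treated line difference (4 with all cultures) and 0 to 1 for NIKsh minus NTC untreated. The other counts stayed within 1.5 times of their values, and the replicate block changed no other member's call. When cultures were left out, 2882 to 4391 of all 11548 genes passed in the treated line difference, against 4195. In Z-138 NIKsh more of all genes passed in every such fit than with all cultures. The highest count there, 4 members, came without Maver-1 NIKsh#1, where 534 of all 11548 genes passed, against 247. That fit left the Z-138 NIKsh estimates as they were and altered only the estimate of spread. Among all genes, however, the NIKsh changes numbered 5, but 16 with no replicate block, 13 with a random block, 18 with array weights, and 0 without Z-138 NIKsh#1 or Maver-1 NIKsh#1. In Z-138 they numbered 247, but 23 without the variance trend, 918 without NIKsh#1 and 0 with the ACTB ratio as a covariate; Z-138 minus Maver-1 numbered 14, with 0 to 423 under the alternatives.

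No member that passed changed direction. Differences that had not passed did. With the ACTB ratio as a covariate the Z-138 NIKsh change became -0.0029 for EBF1, -2.43 for BACH2, -2.77 for SPIB, 0.22 for SPI1 and -3.10 for POU2F2, with SEs up to 2.52, and Z-138 minus Maver-1 became -0.31 for EBF1, -2.52 for BACH2, -2.82 for SPIB, 0.46 for SPI1, 0.030 for POU2AF1 and -3.41 for POU2F2. That covariate leaves 1 residual degree of freedom there. Under it PECAM1, which had passed, turned to 1.55 in Z-138, ELL2 to 0.37 for Z-138 minus Maver-1, and untreated POU2F2 to -0.12 between the lines. The mean of probe sets gave 0.067 for IKZF3 (NIKsh minus NTC), -0.21 for PAX5 and -0.046 for EBF1 (Z-138 minus Maver-1), and -0.37 for SPIB (treated lines), and quantile normalization gave -0.0026 and -0.029 for EBF1 in the last 2 comparisons. For these the cause was not tested.

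Leaving out single cultures, a lone culture being assumed to vary like the others, gave for Z-138 minus Maver-1 -0.12 to 0.20 (EBF1), -0.26 to 0.64 (PAX5) and -0.51 to 0.017 (SPI1). In Z-138 it gave -0.0042 to 1.36 (BACH2) and -0.20 to 0.050 (SOX11), and over both lines -0.022 to 0.47 (BACH2), -0.0036 to 0.24 (SOX11) and -0.00041 to 0.43 (SPIB). NIKsh minus NTC ran from -0.25 to 0.84 (SOX11) and -0.53 to 0.30 (SPI1), the untreated line difference from -0.20 to 0.054 (IKZF3) and -0.11 to 0.19 (POU2F2), and the treated one from -0.21 to 0.35 (EBF1) and -0.29 to 0.27 (SPIB). Of 29 list genes taken by rule for the untreated line difference, 26 kept their call throughout, and BCL6B, CD79B and MS4A1 did not. These 29 include genes that reached the filter only through 1 line, such as BCOR and NFATC1, whose calls are not evidence of a difference. Signals near the filter, such as SPI1 and BCL6 in Z-138, are measured least precisely.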
